A study of Drosophila melanogaster with 32 samples.

Results

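The 10 genes M1BP, Cp190, su(Hw), mod(mdg4), CTCF, pita, ZIPIC, Ibf1, Clamp and Chro encode insulator proteins, or proteins that work with them, in Drosophila melanogaster. They were chosen by name, with earlier results of these data known. They are 10 of the 17684 annotated genes on the chromosome arms, of which 13922 are protein-coding. Every peak that overlapped a gene's annotated span widened by 1 kb on each side, by at least 1 bp, was assigned to that gene. The question was whether insulator proteins bind their own genes and each other's.

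Binding was mapped by ChIP-seq, in which DNA crosslinked to a protein is pulled down with an antibody and sequenced. The cells were Kc167, a female line derived from embryos. One experiment set mock treatment beside 20 µg of double-stranded RNA (dsRNA) against M1BP (labelled M1BPKD), with antibodies to Mod(mdg4), Su(Hw), CP190 and M1BP. The other set a further mock group (labelled mock2) beside 12 µg of dsRNA against Cp190 (Cp190KD), with antibodies to CP190 and M1BP. Per the labels, the dsRNA was given by transfection and the cells were then kept for 5 days. The labels do not say what the mock-treated cells received. All groups share the one cell line, and the files hold no measure of the protein or RNA that each knockdown left. M1BP and Cp190 are thus both members of the gene list and targets of the dsRNA.

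Insulator elements limit contact between enhancers and promoters and lie at many boundaries of chromatin domains. Proteins with zinc fingers, such as Su(Hw), CTCF, Pita, ZIPIC and Ibf1, recognise DNA sequence there and recruit CP190, and Su(Hw) also recruits Mod(mdg4). CP190 and Mod(mdg4) are partner proteins with a BTB domain. M1BP, also a zinc-finger protein, recognises the Motif 1 element in promoters, often at genes with paused RNA polymerase II.

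The 24 deposited peak lists, 2 for each of 12 combinations of antibody and treatment, held 113005 peaks, from 1699 to 8443 per list. The 8 inputs among the 32 samples came without peak lists and were not used here. Of all peaks, 163 (0.144%) lay at the 10 genes. Fold enrichment is the authors' ratio of ChIP to control signal at a peak. It is not scaled between libraries, so folds below describe peaks, and a percentile gives a peak's rank by fold within its own list. A gene is called bound in a group when both lists hold a peak, and each group has 2 libraries. The members are long, with a median span of 3779.5 bp against 1710 bp for all genes, and a longer span has more room for a peak.

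Among the 4 proteins mapped, CP190 and Su(Hw) had peaks at their own genes, while M1BP and Mod(mdg4) did not. CP190 had a peak at Cp190 in 6 of its 8 lists, and Su(Hw) had one at su(Hw) in 4 of its 4 lists. M1BP had no peak at M1BP in any of its 8 lists, and Mod(mdg4) had none at mod(mdg4) in any of its 4 lists. Of the 16 pairings of these 4 proteins with the 4 genes that encode them, 8 held a peak in both lists of the first mock set, 2 of them at a protein's own gene. For reference, 49.9% of all genes held such peaks for CP190, 26.5% for M1BP, 15.9% for Su(Hw) and 12.0% for Mod(mdg4), so the 3 genes with CP190 or M1BP are not read as particular to these proteins. A gene with no peak is one where nothing passed the authors' threshold, and binding below it remains possible.

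CP190 bound nearly all of the 10 genes and M1BP most of them, whereas Su(Hw) and Mod(mdg4) bound su(Hw) alone. In the first mock set CP190 bound 9 genes, all but M1BP, against 49.9% of all genes and 56.5% of protein-coding genes. M1BP bound 7 (Cp190, su(Hw), mod(mdg4), ZIPIC, Ibf1, Clamp and Chro), against 26.5% of all genes and 30.9% of protein-coding genes. Su(Hw) bound 1, against 15.9% of all genes and 17.1% of protein-coding genes, and Mod(mdg4) bound 1, against 12.0% and 13.3%. In both cases the gene was su(Hw).

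The second mock set gave nearly the same genes. CP190 again bound 9, all but M1BP, against 53.1% of all genes and 59.9% of protein-coding genes. M1BP bound 8, against 32.8% and 38.3%, the further one being pita. M1BP and CP190 both bound 7 members in the first mock set, against 23.5% of all genes. All 4 proteins bound 1 member, su(Hw), against 2.56% of all genes (453 genes).

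**Figure D1:**
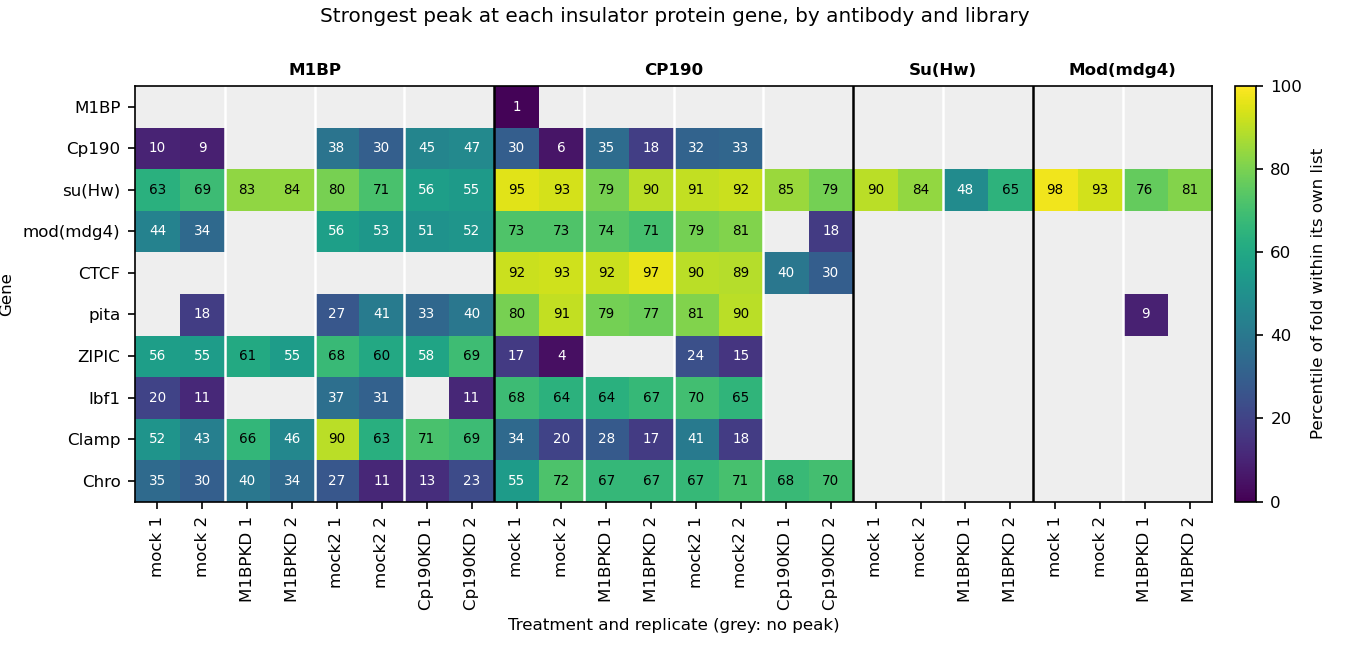
Percentile of the strongest peak's fold within its own list (colour and number, 0 to 100) at each of the 10 genes (rows) in each of the 24 libraries (columns, by antibody, treatment and replicate; grey cells hold no peak). The su(Hw) row is filled in all 24 columns, the M1BP row holds a single weak CP190 peak, and percentiles of lists of different lengths do not show a change.

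The 2 antibodies with many peaks at these genes marked gene ends to different degrees. A peak is at a gene end when its summit lies at most 250 bp from the low- or high-coordinate end of any annotated gene, whatever the strand. Of the 64 M1BP peaks at the members over all lists, 62 were at some gene end and 51 at the member's own end, against 74.1% to 84.4% of all M1BP peaks per list at a gene end. Of the 90 CP190 peaks, 75 were at some gene end and 50 at the member's own, against 48.9% to 53.4% of all CP190 peaks. None of the 4 Su(Hw) peaks or 5 Mod(mdg4) peaks was at a gene end, where 11.6% to 13.0% and 13.1% to 19.3% of all their peaks lay. Peaks of the same site recur in several lists, so these counts are not counts of independent sites. Member peaks also had to overlap a member's widened span, while the shares are of all peaks, wherever they lay. The window rule alone can place member peaks closer to gene ends, so no excess or lack there is read from these shares.

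**Figure D2:**
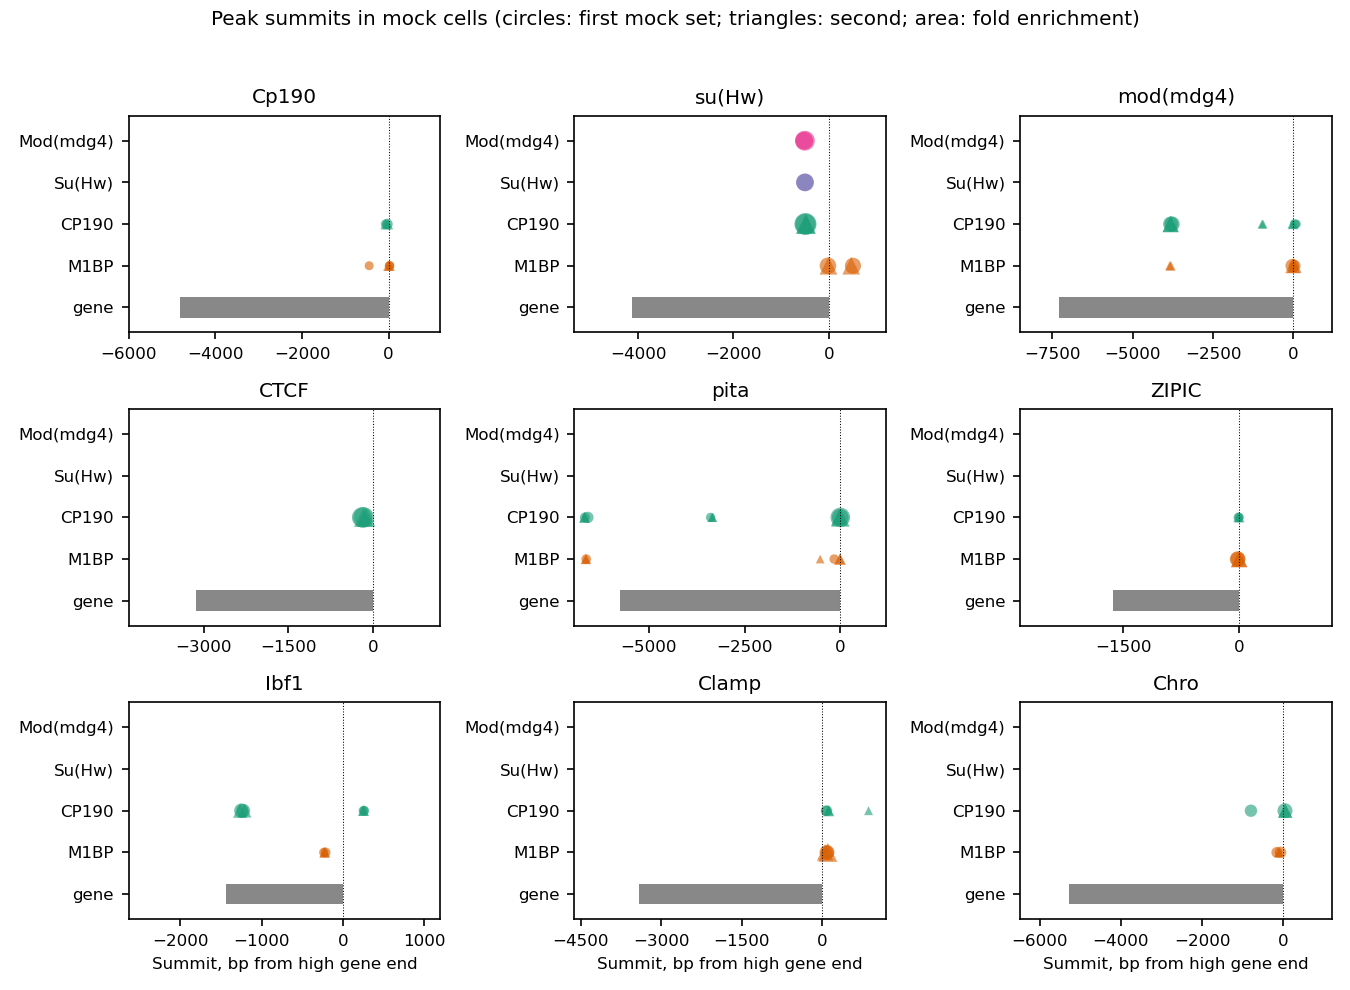
Position of each peak summit in mock-treated cells, in bp from the high-coordinate end of the gene (x axis), for each antibody (y axis), at the 9 members with a peak in both lists of a mock group; circles are the first mock set, triangles the second, marker area follows fold, and the grey bar is the annotated gene. Most M1BP summits sit at the gene end, while the strongest CP190 summits of su(Hw) and mod(mdg4) lie inside the gene and that of Ibf1 lies near its low-coordinate end; the M1BP gene, with 1 CP190 peak, is left out.

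M1BP, which encodes the Motif 1 binding protein, was the member with least signal. Its single peak in the 24 lists was a CP190 peak in replicate 1 of the first mock set, on 3R from 8731534 to 8731853, with a fold of 2.59 at percentile 1.01 of its list. No other list held a peak there, so the gene was bound in none of the 12 groups.

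Cp190 encodes the BTB and zinc-finger protein that many insulator proteins recruit. M1BP folds at its high-coordinate end were 3.40 and 3.25 in the first mock set and 5.04 and 4.80 in the second. CP190 folds at the same end were 5.18 and 3.19, then 5.10 and 5.47. Both proteins thus sat at this gene in all 4 mock libraries each, in the lower ranks of their lists, at percentiles 8.81 to 38.3 for M1BP and 5.50 to 33.1 for CP190. With only peaks of -log10 q of 10 or more, neither protein bound Cp190 in the first mock set, and M1BP and CP190 both did in the second. The CP190 summits lay 17 to 71 bp and the M1BP summits 7 to 28 bp from the gene end in mock cells, apart from 1 further M1BP peak of replicate 2 (fold 2.90), 448 bp from it.

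The 2 knockdowns gave opposite lists at Cp190. After M1BP knockdown neither library held an M1BP peak there, and the CP190 folds were 5.07 and 3.81. After CP190 knockdown neither library held a CP190 peak, and the M1BP folds were 6.25 and 7.01. Each protein therefore kept a peak in both libraries where the other had been targeted.

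The gene su(Hw) encodes the zinc-finger protein of the gypsy insulator. It was the one member with a peak in all 24 lists. In the first mock set the folds of replicates 1 and 2 were 20.2 and 20.7 for Su(Hw), 26.8 and 20.4 for Mod(mdg4), and 34.0 and 29.0 for CP190. These peaks ranked high in their lists, at percentiles 89.7 and 83.8 for Su(Hw), 98.0 and 93.3 for Mod(mdg4), and 95.4 and 93.4 for CP190. M1BP folds were 17.8 and 16.7, at percentiles 63.4 and 68.7.

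Within the su(Hw) locus the summits fell at separate positions. The strongest CP190, Su(Hw) and Mod(mdg4) peak of every list had its summit inside the gene, 477 to 531 bp from the high-coordinate end. M1BP summits were elsewhere: 5 of the 8 lay within 37 bp of that end, and the other 3 lay 466, 495 and 503 bp beyond it. The neighbouring gene Polr2I, which encodes a subunit of RNA polymerase II, begins 500 bp from su(Hw). The M1BP peaks spanned both positions, and the replicates of 3 groups had their summit at different ones.

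**Figure D3:**
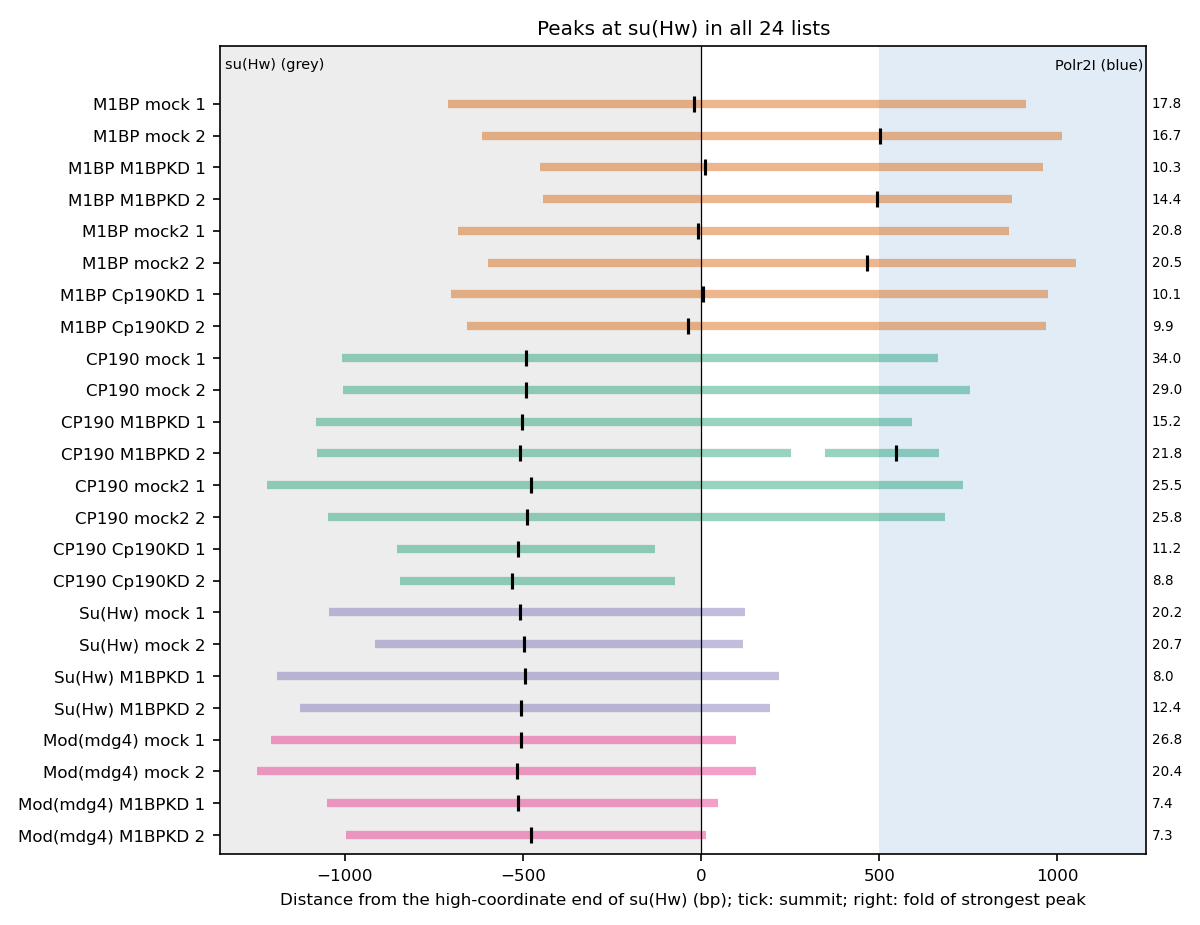
Extent (bar) and summit (tick) of every peak at su(Hw) in the 24 lists, in bp from the high-coordinate end of the gene (x axis), with the fold of the strongest peak at the right; grey shading is su(Hw) and blue shading Polr2I. The strongest CP190, Su(Hw) and Mod(mdg4) summits line up 477 to 531 bp inside the gene, M1BP summits lie at the gene end or close to Polr2I, and 1 weak CP190 peak of the M1BP knockdown lies at Polr2I.

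After M1BP knockdown the su(Hw) peaks remained in every list. Su(Hw) folds were 8.02 and 12.4, in lists with median folds of 8.40 and 9.26 where the mock lists had 10.7 and 11.3. Mod(mdg4) folds were 7.41 and 7.35, with list medians of 3.45 and 3.30 against 6.94 and 6.23 in mock cells. The Su(Hw) peak stood at percentiles 48.2 and 64.7 and the Mod(mdg4) peak at 76.3 and 81.4, and since these lists are longer than the mock lists, no change is read from the ranks. CP190 folds were 15.2 and 21.8, and M1BP folds 10.3 and 14.5. Replicate 2 had a second, weak CP190 peak at Polr2I (fold 2.64), with its summit 547 bp beyond the end of su(Hw).

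In the CP190 knockdown the CP190 peak at su(Hw) was present in both lists and narrower. Its folds were 11.2 and 8.76, against 25.5 and 25.8 in the second mock set. The peaks were 726 and 772 bp wide and stopped inside the gene, at -129 and -74 bp relative to its end. In the second mock set they were 1954 and 1732 bp wide and ran 736 and 685 bp past that end. The median folds of the CP190 lists were 5.03 and 4.76 after the knockdown and 7.59 and 7.68 in the second mock set. M1BP folds at su(Hw) were 10.1 and 9.86 after the knockdown, and 20.8 and 20.5 in the second mock set. Folds and widths are not scaled between libraries, so no change particular to su(Hw) is read from them.

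The gene mod(mdg4), whose transcripts are joined by trans-splicing into many isoforms of a BTB protein, had its strongest M1BP and CP190 peaks at different places. M1BP folds at its high-coordinate end were 11.0 and 7.25 in the first mock set, and 12.6 and 14.0 in the second. The strongest CP190 peak lay within the gene, 3479 to 3526 bp from the low-coordinate end, with folds of 14.5 and 14.3, then 16.3 and 17.3. The annotated segments pre-mod(mdg4)-N, pre-mod(mdg4)-O and pre-mod(mdg4)-AA have an end within 250 bp of that summit. CP190 was also at the gene end, at folds of 4.06 and 2.65, then 3.28 and 4.60, and in the second mock set M1BP was at the internal site, at 2.96 and 3.87. A further weak CP190 peak, 6325 and 6354 bp from the low-coordinate end, was in both lists of the second mock set, with folds of 2.84 and 2.81.

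After M1BP knockdown no M1BP peak remained at mod(mdg4). CP190 stayed at the internal site, with folds of 13.2 and 12.6, and at the gene end, with 2.99 and 2.61. After CP190 knockdown the internal site held a CP190 peak in replicate 2 only, with a fold of 2.99, and the other CP190 sites held none. M1BP folds at the gene end were 8.26 and 9.05, while the weak internal M1BP peaks were absent from both lists. Each protein thus had a peak in both libraries at the gene end when the other was knocked down.

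CTCF, the fly counterpart of the vertebrate zinc-finger insulator protein, was bound by CP190 and by no other protein mapped. CP190 folds were 29.0 and 28.3 in the first mock set, 21.5 and 29.0 after M1BP knockdown, and 24.3 and 22.9 in the second mock set. After CP190 knockdown they were 4.25 and 3.51. The peak was thus in all 8 CP190 lists, within the top percentiles of the mock lists (89.1 to 92.8). Summits lay 120 to 218 bp inside the high-coordinate end, which is also close to an end of the antisense gene asRNA:CR45822. Reads do not assign a peak to either gene.

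The gene pita encodes a zinc-finger insulator protein that recruits CP190. CP190 folds at its high-coordinate end were 18.3 and 26.1 in the first mock set, 15.1 and 15.3 after M1BP knockdown, and 17.5 and 23.3 in the second mock set. After CP190 knockdown neither list held a peak there. M1BP at this end was weak, with a peak in replicate 2 of the first mock set (3.67) and folds of 3.90 and 7.42 in the second, then 3.55 and 5.03 after CP190 knockdown. No M1BP peak was present after M1BP knockdown. Other CP190 peaks assigned to pita lay at ends of neighbouring genes, namely wmd and levy at one position and Dcp-1 at another, with folds of 2.97 to 6.51 over the lists that held them. M1BP was also at the wmd and levy position, in replicate 2 of the first mock set (3.89). Its folds there were 3.46 and 4.76 in the second mock set and 4.24 and 2.82 after CP190 knockdown. At Dcp-1 it had a peak in replicate 2 of the CP190 knockdown only (2.42).

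ZIPIC encodes a further zinc-finger protein that interacts with CP190. M1BP folds were 15.4 and 13.2 in the first mock set and 17.2 and 16.9 in the second, and CP190 folds were 4.07 and 3.04, then 4.41 and 3.76. The M1BP peak stood at percentiles 55.2 to 67.8 of its own lists, and the CP190 peak at 4.04 to 24.5 of its own, longer lists. These ranks do not compare the amount of the 2 proteins bound. In the mock libraries the summits of the 2 proteins lay 3 to 16 bp apart, at the gene end.

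ZIPIC was the one member that had a CP190 peak in both mock lists and in neither list of the M1BP knockdown. M1BP folds after M1BP knockdown were 6.48 and 7.58, so the M1BP peak was in both lists, while CP190 had none. After CP190 knockdown M1BP folds were 10.8 and 13.6, and CP190 again had no peak.

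Ibf1 encodes a protein that binds insulators together with Ibf2, whose gene lies next to it. The stronger of its 2 CP190 sites was near the low-coordinate end, 172 to 227 bp inside the gene in mock cells, with folds of 12.8 and 11.3, then 12.2 and 11.1 in the second mock set. The other was beyond the opposite end, close to ATP6AP2, with folds of 3.87 and 3.98, then 4.49 and 5.24. M1BP sat between them, 213 to 235 bp inside the high-coordinate end, with folds of 4.16 and 3.44, then 4.82 and 4.88. M1BP summits were thus 468 to 489 bp from the nearest CP190 summit, unlike at ZIPIC. That summit was of the weaker site close to ATP6AP2, and the stronger CP190 site lay further away.

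At Ibf1 the M1BP peak was absent from both lists after M1BP knockdown, and both CP190 sites were kept, with folds of 9.89 and 11.4 at the stronger and 4.64 and 3.46 at the other. After CP190 knockdown neither CP190 site held a peak. M1BP had a peak in replicate 2 only, with a fold of 2.76. Its summit lay 171 bp beyond the high-coordinate end, 67 bp from an end of ATP6AP2. That peak began beyond the gene end and did not cover the position of the mock M1BP summits.

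Clamp encodes a zinc-finger protein that binds GA-rich sequence and takes part in dosage compensation. M1BP folds were 13.8 and 10.1 in the first mock set, 7.30 and 6.14 after M1BP knockdown, 24.3 and 17.7 in the second mock set, and 14.3 and 13.5 after CP190 knockdown. CP190 folds were 5.59 and 4.37, then 4.37 and 3.74 after M1BP knockdown, and 6.26 and 3.96 in the second mock set. M1BP had a peak in all 8 lists. CP190 was in all but the 2 lists of the CP190 knockdown.

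The CP190 summit at Clamp was at another position after M1BP knockdown. In the first mock set it lay 91 and 72 bp beyond the high-coordinate end, and in the second 125 and 124 bp beyond it, 3 to 65 bp from the M1BP summit. After M1BP knockdown it lay 498 and 491 bp inside the gene in the 2 libraries, while the M1BP summits were 65 and 13 bp beyond the end. A second, weak CP190 peak at lncRNA:CR44809 was in replicate 2 of the second mock set (fold 2.79, summit 870 bp beyond the end) and replicate 1 of the M1BP knockdown (summit 872 bp beyond it). The mock peaks also covered the inner position, since they began between -758 and -618 bp. Of 6601 CP190 sites with a peak in all 4 lists of this comparison, 70 (1.06%) had mean summits of the mock and knockdown libraries over 250 bp apart, with replicates within 250 bp of each other. Among such sites the share was 39 of 1737 (2.25%) where M1BP was bound in mock cells and 31 of 4864 (0.637%) elsewhere. Clamp was the 1 such site among 11 at the members, and it was chosen for description after its position was seen.

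**Figure D4:**
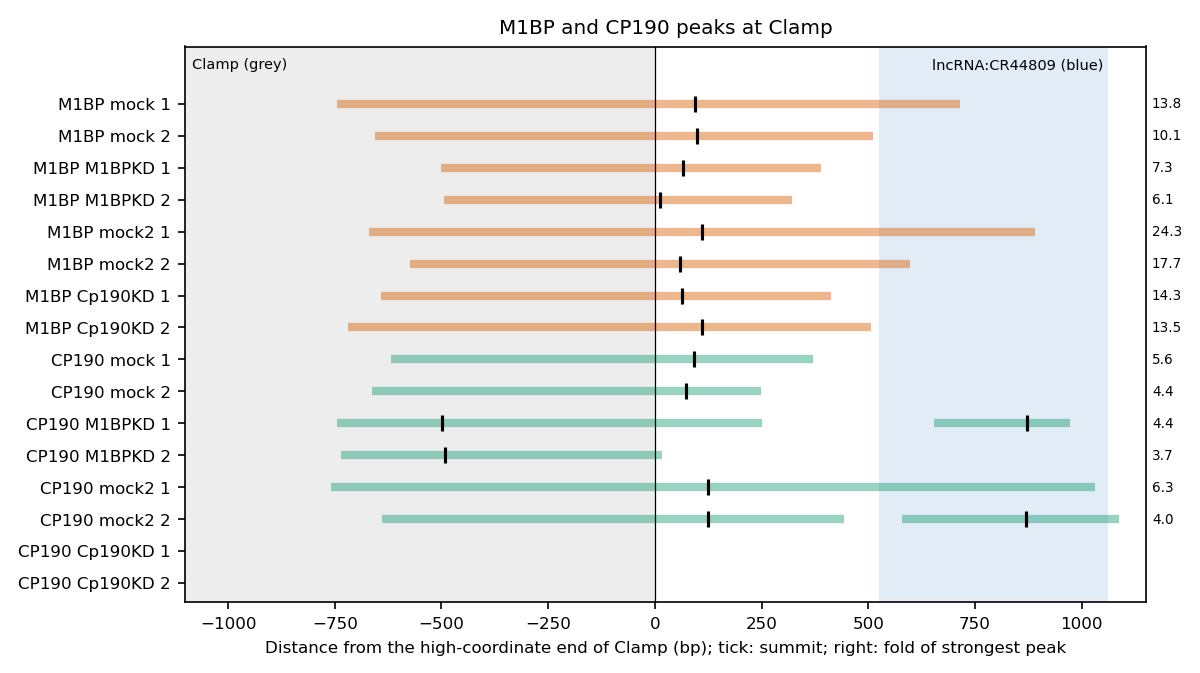
Extent (bar) and summit (tick) of M1BP and CP190 peaks at Clamp in 16 lists, in bp from the high-coordinate end of the gene (x axis), with the fold of the strongest peak at the right; grey shading is Clamp and blue shading lncRNA:CR44809. The strongest CP190 summit lies 72 to 125 bp beyond the end in the 4 mock lists and 491 to 498 bp inside it in the M1BP knockdown lists, 2 lists have a further weak CP190 peak at lncRNA:CR44809, and the 2 CP190 knockdown lists are empty.

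Chro encodes Chromator, a chromodomain protein of interbands that binds many of the same places as other insulator proteins. M1BP folds at its high-coordinate end were 6.99 and 5.87 in the first mock set, 4.19 and 4.76 after M1BP knockdown, 3.90 and 3.32 in the second mock set, and 2.91 and 3.41 after CP190 knockdown. CP190 folds were 8.53 and 14.1, then 10.8 and 11.3, 11.3 and 12.8, and 7.08 and 7.14 in the same order. Both proteins had a peak in each of their 8 lists. The neighbouring gene Ssl1, which encodes a subunit of the transcription factor TFIIH, begins 105 bp from Chro, so the site is at the ends of both genes. The CP190 summit of replicate 1 of the first mock set lay 797 bp inside Chro instead, and replicate 2 of the CP190 knockdown had a second, weak CP190 peak (fold 2.91) with its summit 820 bp inside.

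The counts over all members were set beside those over all sites, where peaks of the 4 lists of a comparison that overlapped were merged into a site. A site was lost when both control lists and neither knockdown list held a peak, retained when all 4 did, and gained when both knockdown lists and neither control list did. Shares of lost sites are of sites bound in both control lists, and shares of gained sites are of sites bound in both knockdown lists. With 2 libraries against 2, an exact permutation test cannot go below p = 0.333, so no test between libraries was made.

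After M1BP knockdown, 3 of 7 M1BP sites at the members were lost, at Cp190, mod(mdg4) and Ibf1, against 35.4% of all M1BP sites. The other 4, at su(Hw), ZIPIC, Clamp and Chro, were retained, and none was gained, against 1.83%. The 3 lost sites include the 2 weakest of the 7 (Cp190 and Ibf1, at mean mock percentiles 9.32 and 15.9). Among all sites up to percentile 20, 71.8% were lost, and 74.5% from 20 to 40, the range that holds mod(mdg4) (39.3, lost) and Chro (32.5, retained). From 40 to 60, where Clamp and ZIPIC lie, 36.9% were lost. The count of 3 was not stable: with only peaks of -log10 q of 10 or more, or with lists of equal length, mod(mdg4) alone was lost. Under these settings Cp190 and Ibf1 left the count because mock peaks were cut, and the knockdown lists still held no peak there. Without replicate 1 of the mock M1BP libraries the count was 6, at Cp190, Ibf1, mod(mdg4) and pita.

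CP190 sites at the members were mostly kept after M1BP knockdown. Of 12, 1 was lost, at ZIPIC, against 4.26% of all CP190 sites, and 11 were retained. None was gained, against 4.34%. With only peaks of -log10 q of 10 or more ZIPIC was not counted as lost, since its mock peak of replicate 2 (6.72) was cut. The knockdown lists still held no CP190 peak there. Without replicate 2 of the mock CP190 libraries the M1BP gene was a second loss. A gain at pita appeared at -log10 q of 10 or more and without replicate 1 of the mock libraries, one at mod(mdg4) without replicate 1 of the knockdown libraries, and one at Clamp without replicate 2. The single Su(Hw) site was retained, and over the genome 0.427% of Su(Hw) sites were lost and 11.1% gained. The single Mod(mdg4) site was also retained, with 3.87% of all Mod(mdg4) sites lost and 16.4% gained, and pita had a weak Mod(mdg4) peak in replicate 1 alone (fold 2.12), which counts as gained when replicate 2 is left out.

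CP190 knockdown left few CP190 peaks at these genes. Of 14 sites, 10 were lost, against 71.0% of all CP190 sites, and none was gained, against 0.288%. The 3 retained were at su(Hw), CTCF and Chro, and the internal site of mod(mdg4) kept a peak in 1 library. Retained sites were more common among strong peaks: 86.0% of sites over percentile 90 were retained, 68.5% from 80 to 90, and 26.5% from 60 to 80. The gene-end site of pita, at a mean percentile of 85.4, was lost in a range where 20.2% of sites were lost, and its neighbour in rank, CTCF at 89.4, was retained. The CP190 knockdown lists are much shorter than the mock lists, and with lists of equal length pita was the 1 member site lost. That cut to 2031 peaks per list removed a mock2 peak at the rest of the 10 sites, which then could not count as lost. No CP190 peak returned at them in the knockdown lists, so the smaller count does not show that binding was kept.

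M1BP sites at the members were mostly present after CP190 knockdown. Of 10 sites, 8 were retained and 1 was lost, the weak internal site of mod(mdg4), against 5.92% of all M1BP sites. None was gained, against 3.99%. With lists of equal length the internal mod(mdg4) site was not counted as lost, since a mock2 peak was cut. With only peaks of -log10 q of 10 or more both its mock2 peaks were cut, and Ibf1 was lost in its place. The knockdown lists held no peak at the internal mod(mdg4) site in either setting. Without replicate 2 of the knockdown libraries Ibf1 was lost as well. Without replicate 1 of the knockdown libraries 1 site was gained, at pita.

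**Figure D5:**
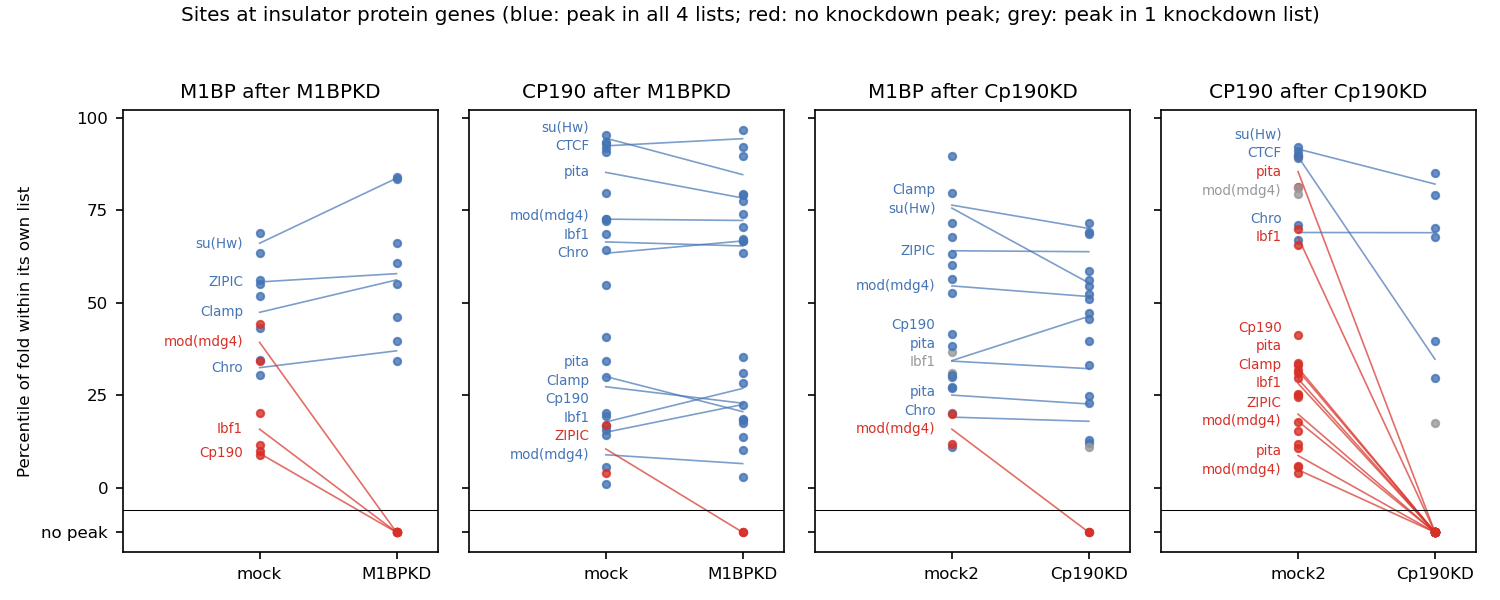
Percentile of fold within its own list (y axis) of each member site bound in both control lists, in the control and the knockdown libraries (x axis), for the 4 comparisons with M1BP or CP190; points are libraries and lines join means of 2 libraries (blue, peak in all 4 lists; red, no knockdown peak; grey, peak in 1 knockdown list). Of the 14 CP190 sites, 10 have no peak after CP190 knockdown, against 71.0% of all CP190 sites. With lists of equal length 1 counts as lost, since that cut removes a mock2 peak at the rest of the 10. In the same experiment 8 of the 10 M1BP sites have a peak in all 4 lists, against 2805 of 3173 over all M1BP sites.

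A second list of 24 genes for other insulator proteins, cohesin subunits and partner proteins was read by the same rule. In the first mock set CP190 bound 19 of the 24, M1BP 14, Mod(mdg4) 2 and Su(Hw) 1, to be read against the shares of all genes above. In the second, CP190 bound 21 and M1BP 13. After M1BP knockdown 7 of their 17 M1BP sites were lost, against 35.4% of all M1BP sites, and none of their 27 CP190 sites, against 4.26%. Of their 5 Mod(mdg4) sites 2 were lost, against 3.87%, and of their 7 Su(Hw) sites none, against 0.427%. Gained were 3 Mod(mdg4) sites, where 16.4% of all sites were gained, 2 Su(Hw) sites (11.1%) and 1 CP190 site (4.34%). These counts are small and were not tested. After CP190 knockdown 25 of their 32 CP190 sites were lost, against 71.0%, and 1 of their 17 M1BP sites, against 5.92%.

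The 6 genes of this second list with the highest-ranked mock peak were Top2, fs(1)h, shep, pzg, Topors and Elba2. At Top2, which encodes topoisomerase II, CP190 folds were 25.9 and 30.1 in the first mock set, 18.8 and 22.6 after M1BP knockdown, 24.7 and 33.5 in the second mock set, and 5.28 and 4.93 after CP190 knockdown. At pzg, which encodes a partner of Chromator, they were 22.1 and 21.1, 19.1 and 20.0, 25.6 and 28.4, and 6.08 and 4.36. Both genes thus had CP190 in all 8 lists, as CTCF and fs(1)h did. At fs(1)h the strongest CP190 folds were 26.7 and 28.9 in the first mock set and 8.05 and 9.61 after CP190 knockdown. M1BP also had peaks at pzg, with folds of 4.96 and 3.86 in the first mock set and 6.53 and 6.08 in the second. At Top2 M1BP had a peak in replicate 1 of the first mock set (2.99) and folds of 5.37 and 5.99 in the second.

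The bromodomain gene fs(1)h and the genes Topors, for a ubiquitin ligase of insulator bodies, and Elba2, for a subunit of a boundary factor, had strong M1BP peaks. At fs(1)h the M1BP folds were 17.3 and 15.8 in the first mock set, and after M1BP knockdown replicate 2 alone held a peak, at 2.68. At Topors they were 14.5 and 20.3, then 2.72 and 4.29. At Elba2 they were 21.1 and 17.4, then 13.4 and 16.6, so the peak was in both knockdown lists at the last 2 genes.

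The RNA-binding protein gene shep, whose product acts on the gypsy insulator, was the one gene of the second list with Su(Hw) and Mod(mdg4) peaks in both mock lists of each. Its strongest Su(Hw) peak had folds of 19.9 and 16.8, and its strongest Mod(mdg4) peak 12.5 and 11.4. Its annotated span of 122124 bp held 7 Su(Hw) peaks in each mock list, whereas su(Hw), at 4135 bp, held 1.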

How the data were processed

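ChIP-seq peak lists of 24 libraries, in 12 groups of 2, were used. Groups follow the antibody and treatment in the labels. Whether the replicates came from separate cultures is not stated, so their spread may be technical. The submitters' processing notes name MACS2 2.2.5, Picard 2.20.2, SAMtools 1.9 and Bowtie2 2.3.5, without options. The authors called peaks in each library separately. The deposited score of a peak is 10 times its -log10 q rounded down, except at 1 peak, and was not used. The fold is the authors' ratio of ChIP signal over control, and libraries were not scaled to each other. Each peak's -log10 p and -log10 q were also set by the authors' caller. The other deposited value is the summit's distance from the peak start. The authors' threshold was q = 0.05. The depth of reads is unknown, so the number of peaks per list limits the precision.

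Genes, their spans and neighbours came from a RefSeq gene table of the assembly whose sequence names match the lists. The build is not named in the labels. That table gives no strand, so gene ends stand in for start sites. Peak positions are printed as deposited. All named peaks were read with Python 3.11.15 and pandas 2.3.3. No sequence was used here, and the planned motif and protein searches were not run. Sites were merged by overlaps of at least 1 bp, and the merging was tested on simulated data. The members and lists were chosen with earlier results of these data known, so no test over members was made. The naming rule takes all 10 members, the 6 genes of the second list with the highest-ranked mock peak, and genes with an end within 250 bp of a member's summit. Alternatives were other windows, summits at gene ends, -log10 q of 10 or more, lists of equal length, and leaving out each library. Distances of 100 and 400 bp for a moved summit were added after seeing the data.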

Additional observations from a re-analysis of the deposited data

How the results depend on the processing

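Of 134 alternatives to 19 counts at the 10 genes, 117 stayed within 1.5 times the main count and 17 moved further. An equal count need not mean the same genes: for M1BP after CP190 knockdown, the 1 lost site was at mod(mdg4), and at Ibf1 with -log10 q of at least 10. Windows with no widening or widened by 2 kb moved none of them by more than that. When the summit had to lie within 250 bp of a gene end, Su(Hw) and Mod(mdg4) each bound 0 members, against 1. When each peak needed a -log10 q of at least 10, M1BP sites lost after M1BP knockdown numbered 1, CP190 sites lost 0 and CP190 sites gained 1. With lists of equal length, M1BP sites lost and gained after M1BP knockdown were 1 and 1, CP190 sites lost after CP190 knockdown were 1 against 10, and M1BP sites lost after CP190 knockdown were 0. Both the -log10 q setting and the equal lengths also removed control peaks. A site lacking a peak in either control list cannot count as lost. A site can count as gained once its control peaks are removed. A lower count of lost sites under these settings is thus not a return of knockdown peaks. Apart from the equal lengths themselves, the cause was not tested. Leaving out 1 library at a time gave 3 to 6 lost and 0 gained M1BP sites after M1BP knockdown, 1 to 2 lost and 0 to 1 gained CP190 sites after M1BP knockdown, and 0 to 1 gained Mod(mdg4) sites. It gave 10 to 11 lost CP190 sites, 1 to 2 lost M1BP sites and 0 to 1 gained M1BP sites after CP190 knockdown. The moved CP190 summit at Clamp was the 1 such member site at distances of 100, 250 and 400 bp. No paired analysis was possible because these counts come from no fitted test, and a site lost in both same-numbered pairs of libraries is, by construction, a site counted as lost here. A lost site is one with no peak past the authors' threshold.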

Other observations

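The mod(mdg4) locus carries 23 annotated segments whose transcripts are joined to the common part of the gene, and some lie outside the window used for the gene. There, CP190 had 2 peaks in each list of both mock sets and of the M1BP knockdown, with the highest fold per list between 4.36 and 8.33, and no peak in the CP190 knockdown lists. M1BP had 1 peak in each mock list, with folds of 2.76 to 3.91, and 1 in replicate 2 of the CP190 knockdown (2.31). Mod(mdg4) had none in any of its 4 lists. Su(Hw) had none in the mock lists and 1 in each list of the M1BP knockdown, with folds of 4.73 and 5.51. Over the genome, 11.1% of the Su(Hw) sites bound in both knockdown lists were gained. Those lists are longer than the mock lists, so no gain particular to mod(mdg4) is read.

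The set of groups in which a member was bound was shared with other genes to different degrees. The su(Hw) gene was bound in all 12 groups, as were 197 genes (1.11%) in all, itself included. Cp190 and mod(mdg4) had the same set of 6 groups, which 722 genes (4.08%) had. The set of Clamp was that of 1370 genes (7.75%), and the set of Ibf1 that of 35 genes (0.198%). The M1BP gene was bound in no group, as were 7060 genes (39.9%).

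In the second list, Elba1, Elba3 and vtd were bound in none of the 12 groups. The CP190 site of Ibf2 is the stronger CP190 site of Ibf1, which lies near the end of Ibf1 that faces Ibf2, so the 2 genes are not independent.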
